A study of Homo sapiens with 21 samples.

Results

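The genes described are 10 components of lipopolysaccharide and Toll-like receptor sensing: CD14, LY96, TLR4, LY86, CD180, TLR1, TLR2, TLR5, TLR8 and MYD88. They were taken by symbol from the platform annotation of an array that measured 12165 genes with a single symbol, so they are 10 of 12165 genes tested, and each was read by 1 probe set. The arrays were Affymetrix HT HG-U133A arrays of total RNA from 3 human acute myeloid leukaemia lines. MOLM-14 is a monocytic line with an internal tandem duplication in FLT3. U937 is a monocyte-like line that was grown from a histiocytic lymphoma, while HL-60 cells resemble promyelocytes. Each line was infected with shSYK_1 or shSYK_2, short hairpin RNAs that target the kinase SYK, or with shLuc, a hairpin against luciferase that serves as the control. Every culture, the controls included, was selected in puromycin (1 µg/ml, started 48 h after infection), and RNA was taken 5 days after infection. Per line there were 2 arrays with shSYK_1, 2 with shSYK_2 and 3 with shLuc, which makes 21 arrays in 9 groups. The labels describe these as separate transductions of these lines, and the p-values reflect how much such transductions varied. These were unstimulated cultures as far as the labels say, and no protein was measured. The study asked how SYK acts on FLT3 in this leukaemia, and the comparison used here is knockdown against control.

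Toll-like receptors are membrane proteins of innate immune cells that bind microbial products and signal to NF-kB and interferon regulatory factors. For lipopolysaccharide of Gram-negative bacteria, the surface protein CD14 passes the ligand to the complex of TLR4 and its secreted partner MD-2, the product of LY96. CD180 (also called RP105) resembles TLR4 and sits in a complex with MD-1, the product of LY86. TLR2 pairs with TLR1 to bind triacylated lipopeptides, TLR5 binds flagellin and TLR8 binds single-stranded RNA in endosomes, and MYD88 is the adaptor that all Toll-like receptors named here recruit. In blood most of these genes are known from monocytes and granulocytes, and CD180 and LY86 also from B cells.

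The hairpin targets are shown because every comparison rests on them. In each, the capitals mark the 7 bases that would pair with bases 2 to 8 of a guide strand that starts at the last base of the target.
shSYK_1: gcagcagaacagaCATGTCAa
shSYK_2: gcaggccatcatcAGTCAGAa
SYK, read by the brighter of its 2 probe sets, was lower on all 4 knockdown arrays of each line than on any of its 3 control arrays. In MOLM-14 the log2 intensity of SYK was 6.16 and 6.16 with shSYK_1, 5.62 and 5.35 with shSYK_2, and 8.49, 8.42 and 8.44 with shLuc. In U937 it was 7.02 and 6.97 with shSYK_1, 6.57 and 6.55 with shSYK_2, and 8.66, 8.70 and 8.70 with shLuc. HL-60 cells had 7.04 and 7.00 with shSYK_1, 6.66 and 6.90 with shSYK_2, and 8.91, 9.05 and 9.004 with shLuc. Averaged over the lines, SYK fell by 2.21 log2 units (SE 0.0394, limma adjusted p = 8.95e-16), and was 0.45 lower with shSYK_2 than with shSYK_1 (SE 0.0516, adjusted p = 2.94e-06).

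The log2 median over genes was 4.88 to 5.20 on the 21 arrays and the lower quartile 3.05 to 3.24. The deposited values carry no detection call, so a value near that quartile cannot be told from background. One array, HL-60 shSYK_2 replicate 1, has labels that disagree: title and treatment give shSYK_2 and the source name gives shSYK_1. Its deviations from the HL-60 shLuc mean correlated at 0.78 with shSYK_2 replicate 2, against 0.39 and 0.48 with the shSYK_1 replicates (6082 brighter genes, a description). It was kept in shSYK_2. Its upper quartile of intensity was 122.3, against 134.5 to 139.8 on the other arrays. The values in HL-60 and between lines that include it are given with and without it for the genes they concern. Without it the largest move among the 10 genes was 0.04 in the average and 0.09 in the averaged difference between the hairpins, both of LY96. The count that rose was then 9 against 8 in the average (TLR1 added), 8 against 7 in HL-60 (CD180 added) and 7 against 6 with shSYK_2 in HL-60 (TLR1 added), where 0 against 1 fell. Of the myeloid marker genes measured, PTPRC was bright in every line and MPO was bright in HL-60 (mean log2 of the controls 12.8), lower in MOLM-14 (6.15) and near the lower quartile in U937 (3.39). CD68 was dim in all 3 lines (3.07 to 3.37 in the controls). Summed erythroid markers were 42.7 to 54.7 in linear intensity on the SYK hairpin arrays and 41.0 to 48.2 on the shLuc arrays, and B-cell markers 34.96 to 41.9 on the SYK hairpin arrays and 34.97 to 43.7 on the shLuc arrays. On average over the lines, 2 of the 6 myeloid markers measured rose and 1 fell, and of 5 T and NK markers 1 rose and 1 fell. No marker on the erythroid, megakaryocyte, B, or epithelial and stromal lists passed. The part of cell makeup in the results was not tested. Among markers of other lineages, NKG7 was bright, with a control mean of 10.3 in U937, and KRT18 stood at 7.54 in MOLM-14 controls.

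Averaged over the lines and over both hairpins, 8 of the 10 genes rose and 0 fell, while 17.1% of all genes rose and 17.0% fell. The 10 genes were chosen with earlier results of these data known, so counts of them beside all genes are descriptions only. The median log2 change of the 10 genes was 0.40, against 0.01 over all genes tested. The genes that rose were LY96, LY86, CD14, TLR4, TLR8, MYD88, CD180 and TLR5. TLR1 (0.21, adjusted p = 0.0620) and TLR2 (-0.05, adjusted p = 0.507) did not pass. The average hides differences between lines. In MOLM-14, 3 of 10 rose and 0 fell (9.92% of all genes rose and 9.49% fell), in U937 6 rose and 0 fell (7.16% and 7.58%), and in HL-60 7 rose and 0 fell (11.4% and 13.1%). At an unadjusted limma p under 0.05, too, 0 of the 10 fell in the average or in any line with the hairpins averaged. With shSYK_2 by itself, 3 of 10 fell in MOLM-14 (8.12% of all genes), 1 in U937 (7.92%) and 1 in HL-60 (11.4%). The 3 genes that rose in every line were LY96, TLR4 and LY86, and each was higher on all 4 SYK hairpin arrays than on all 3 shLuc arrays of the line. In bulk RNA, more cells of a type and more RNA per cell cannot be told apart.

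**Figure D1:**
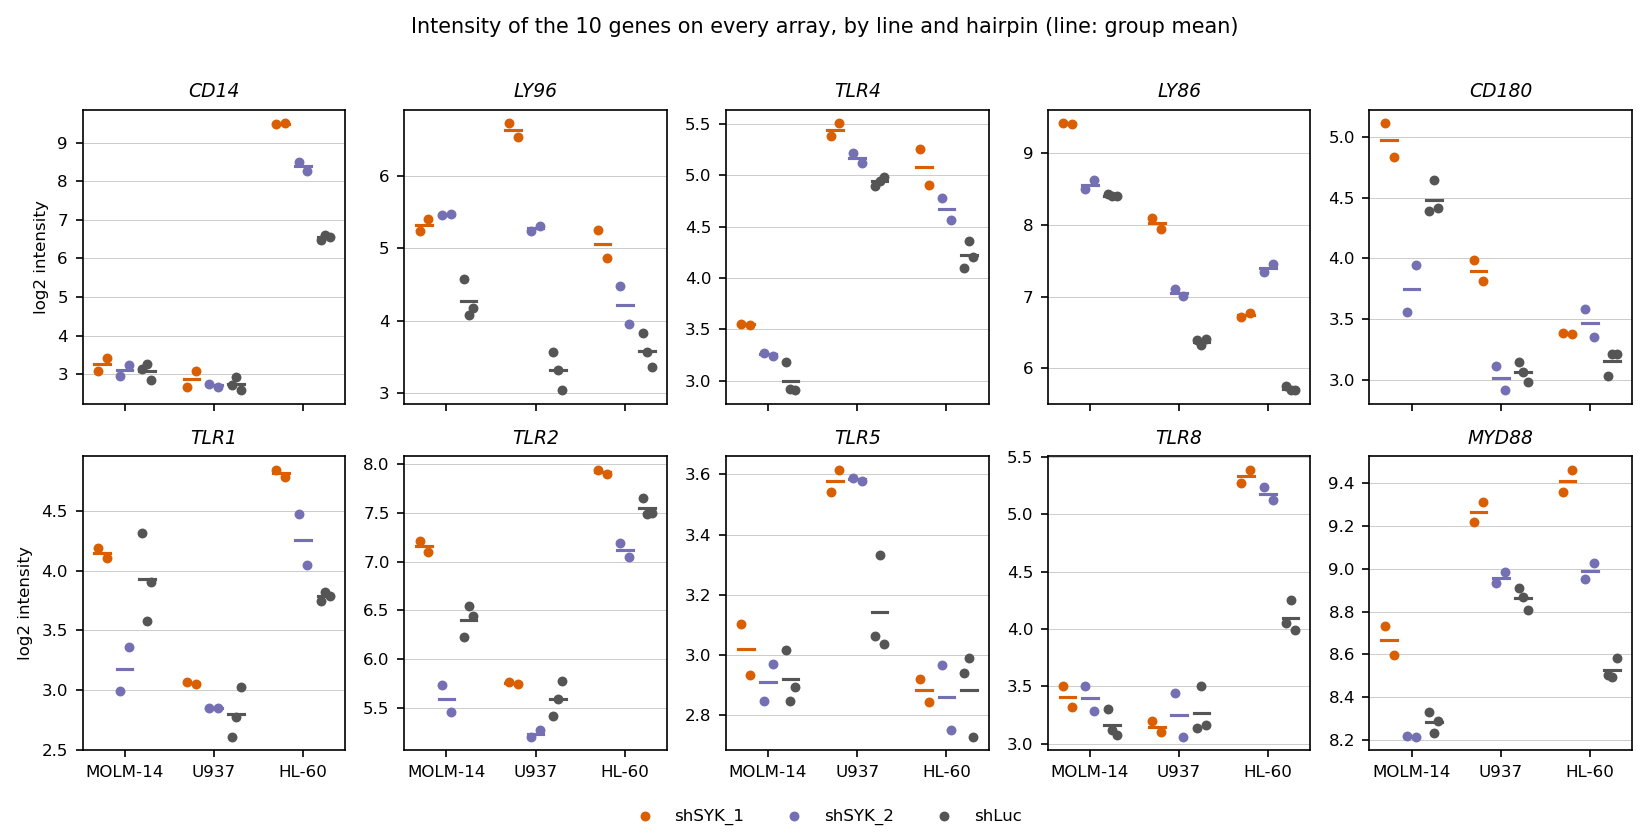
Log2 intensity of each of the 10 genes on all 21 arrays (y axis, one panel a gene with its own scale), by line and hairpin on the x axis; points are arrays and short lines are group means. LY96, TLR4 and LY86 lie above the shLuc arrays in all 3 lines, CD14 moves in HL-60, where it reaches 9.51, and TLR2 lies on both sides of its controls.

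The starts of these genes differ in one short sequence feature. RefSeq promoters of build GRCh38.p14, reaching from 250 bases before the gene start to 50 bases after it, were in the table used for 8 of the 10 genes, LY96 and TLR1 being the others. They were searched on both strands for GAGGAA, the core letters of the PU box bound by the myeloid transcription factor PU.1, and for GAAANNGAAA, the repeat found in interferon-response elements. GAGGAA stood in 4 of the 8 promoters (CD14, TLR4, LY86 and MYD88), and in 27.9% of all 35116 promoters of the table. GAAANNGAAA stood in 1 of the 8 (MYD88) and in 3.57% of all promoters. The 4 promoters that hold GAGGAA are printed below from 5′ to 3′ on the strand of the gene, with the matched letters in capitals. GAGGAA on the opposite strand reads as its reverse complement, TTCCTC. Positions count from the gene start.
CD14: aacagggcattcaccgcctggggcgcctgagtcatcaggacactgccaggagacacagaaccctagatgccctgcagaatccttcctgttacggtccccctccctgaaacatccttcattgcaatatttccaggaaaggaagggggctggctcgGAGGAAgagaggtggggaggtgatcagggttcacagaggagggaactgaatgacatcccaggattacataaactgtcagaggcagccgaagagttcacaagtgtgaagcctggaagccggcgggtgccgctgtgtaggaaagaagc
TLR4: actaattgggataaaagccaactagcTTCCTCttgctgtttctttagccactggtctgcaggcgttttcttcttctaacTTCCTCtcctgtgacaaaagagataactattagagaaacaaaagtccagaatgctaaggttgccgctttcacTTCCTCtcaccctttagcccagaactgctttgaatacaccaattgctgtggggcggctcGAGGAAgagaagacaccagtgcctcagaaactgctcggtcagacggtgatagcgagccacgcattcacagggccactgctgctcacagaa
LY86: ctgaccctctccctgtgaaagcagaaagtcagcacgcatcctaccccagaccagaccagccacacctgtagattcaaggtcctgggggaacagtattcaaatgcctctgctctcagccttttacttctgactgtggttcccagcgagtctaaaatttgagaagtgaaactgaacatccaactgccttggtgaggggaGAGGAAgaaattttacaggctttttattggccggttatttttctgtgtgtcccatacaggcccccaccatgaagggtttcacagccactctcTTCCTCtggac
MYD88: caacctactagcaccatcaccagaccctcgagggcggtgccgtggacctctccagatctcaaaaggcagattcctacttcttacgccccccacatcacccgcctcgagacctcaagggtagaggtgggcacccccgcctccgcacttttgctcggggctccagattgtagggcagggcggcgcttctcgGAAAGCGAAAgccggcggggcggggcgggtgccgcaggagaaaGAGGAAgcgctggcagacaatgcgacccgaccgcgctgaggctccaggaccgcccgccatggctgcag
The CD14 window is chr5:140633126-140633425 on the minus strand, with GAGGAA beginning at -96. The TLR4 window is chr9:117704153-117704452 on the plus strand, with the opposite-strand form at -224, -171 and -99 and GAGGAA at -40. LY86 lies at chr6:6588470-6588769 on the plus strand, with GAGGAA at -53 and the opposite-strand form at 40 within the transcribed part. The MYD88 window is chr3:38138411-38138710 on the plus strand, with GAAANNGAAA at -61 and GAGGAA at -18. Letters found in this way are a description of the window, and no binding was measured in these cells. The windows of CD180, TLR2, TLR5 and TLR8 held neither run of letters.

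CD14 (probe set 201743_at), the lipopolysaccharide co-receptor that marks monocytes, rose in HL-60 and in that line alone passed the test. HL-60 cells had log2 intensities of 9.48 and 9.51 with shSYK_1, 8.27 and 8.504 with shSYK_2, and 6.48, 6.60 and 6.56 with shLuc. The groups did not overlap, and the shSYK_1 arrays stood above the shSYK_2 arrays. The change was 2.39 on the log2 scale, 5.24-fold (SE 0.124, adjusted p = 8.51e-10), and 2.45 without the array whose labels disagree. By hairpin it was 2.94 with shSYK_1 (SE 0.149, adjusted p = 4.91e-10) and 1.84 with shSYK_2 (SE 0.149, adjusted p = 2.75e-07), or 1.96 with shSYK_2 without that array. The other lines had CD14 near the lower quartile of their arrays. In MOLM-14 it was 3.08 and 3.42 with shSYK_1, 2.95 and 3.24 with shSYK_2, and 3.13, 3.27 and 2.85 with shLuc. In U937 it was 2.67 and 3.09 with shSYK_1, 2.75 and 2.66 with shSYK_2, and 2.72, 2.93 and 2.58 with shLuc. Knockdown and control arrays overlapped in both lines, with changes of 0.09 in MOLM-14 (adjusted p = 0.680) and 0.05 in U937 (adjusted p = 0.871). The averaged rise was 0.84 (SE 0.0718, adjusted p = 1.26e-07).

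LY96 (206584_at), which encodes the ligand-binding MD-2 subunit of the TLR4 complex, rose in all 3 lines and with both hairpins. In U937 it was 6.73 and 6.53 with shSYK_1, 5.24 and 5.31 with shSYK_2, and 3.57, 3.32 and 3.04 with shLuc. The control arrays of U937 lay near their lower quartile, and both hairpin groups stood clear of it. The rise in U937 was 2.64 as measured (SE 0.159, adjusted p = 9.61e-09), and with controls this dim its true size cannot be read from the array. MOLM-14 had 5.24 and 5.41 with shSYK_1, 5.46 and 5.47 with shSYK_2, and 4.57, 4.08 and 4.18 with shLuc, a rise of 1.12 (SE 0.159, adjusted p = 9.57e-05). HL-60 had 5.26 and 4.87 with shSYK_1, 3.96 and 4.48 with shSYK_2, and 3.83, 3.57 and 3.36 with shLuc, a rise of 1.06 (SE 0.159, adjusted p = 1.04e-04), or 1.19 without the array whose labels disagree. The HL-60 controls were dim as well (mean 3.58, against 3.31 in U937), so the size of the HL-60 rise is also uncertain. The smallest rise with a single hairpin was that with shSYK_2 in HL-60 (0.64, SE 0.190, adjusted p = 0.0242). It was no longer called without HL-60 shLuc replicate 2 (0.63, adjusted p = 0.0560), without HL-60 shLuc replicate 3 (0.52, adjusted p = 0.0878) or without HL-60 shSYK_2 replicate 2 (0.37, adjusted p = 0.224). Without HL-60 shSYK_2 replicate 1 it was 0.90 (adjusted p = 0.0157), and with that array placed in shSYK_1 it was 0.90 (adjusted p = 0.169). The average over lines was 1.61 (SE 0.0915, adjusted p = 1.17e-09).

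TLR4 (221060_s_at), the signalling receptor for lipopolysaccharide, rose in the same 3 lines by less. MOLM-14 had 3.55 and 3.54 with shSYK_1, 3.27 and 3.24 with shSYK_2, and 3.18, 2.92 and 2.91 with shLuc, values close to the lower quartile of the arrays. U937 had 5.38 and 5.51 with shSYK_1, 5.22 and 5.12 with shSYK_2, and 4.90, 4.94 and 4.99 with shLuc. HL-60 had 5.26 and 4.90 with shSYK_1, 4.57 and 4.78 with shSYK_2, and 4.10, 4.36 and 4.21 with shLuc. In each line the shSYK_1 arrays were the higher of the hairpins and the shLuc arrays the lowest. The rises were 0.40 in MOLM-14 (SE 0.0912, adjusted p = 0.00474), 0.37 in U937 (SE 0.0912, adjusted p = 0.0111) and 0.65 in HL-60 (SE 0.0912, adjusted p = 5.26e-05; 0.71 without the array whose labels disagree). TLR4 rose with shSYK_1 in all 3 lines (0.86 in HL-60, 0.55 in MOLM-14 and 0.50 in U937). With shSYK_2 it passed in HL-60 (0.45, adjusted p = 0.00759) but not in MOLM-14 (0.26, adjusted p = 0.134) or U937 (0.23, adjusted p = 0.185). The U937 call was lost without U937 shLuc replicate 1 (0.34, adjusted p = 0.0508), the U937 shSYK_1 call without its replicate 2 (0.44, adjusted p = 0.0556) and the HL-60 shSYK_2 call without its replicate 2 (0.35, adjusted p = 0.0652). The last of these was 0.55 (adjusted p = 0.0144) without its replicate 1, and was lost with that array placed in shSYK_1 (0.55, adjusted p = 0.107), with array weights (0.45, adjusted p = 0.0746) and with only the HL-60 arrays fitted (0.45, adjusted p = 0.0832). The U937 call was also lost with that array moved (0.37, adjusted p = 0.0676), through the spread shared by all groups. In MOLM-14, log2 of the intensity plus 16 gave 0.15 (adjusted p = 0.0567). A further probe set annotated to both TLR4 and MACROH2A1 was not used.

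LY86 (205859_at), whose product MD-1 is the partner of CD180, had the smallest adjusted p of the 10 genes in the average over lines, with a rise of 1.04, 2.05-fold (SE 0.0318, adjusted p = 1.68e-12). MOLM-14 had 9.42 and 9.41 with shSYK_1, 8.499 and 8.63 with shSYK_2, and 8.43, 8.40 and 8.40 with shLuc. U937 had 8.10 and 7.95 with shSYK_1, 7.11 and 7.01 with shSYK_2, and 6.39, 6.33 and 6.40 with shLuc. HL-60 had 6.72 and 6.77 with shSYK_1, 7.46 and 7.35 with shSYK_2, and 5.75, 5.70 and 5.69 with shLuc. In MOLM-14 and U937 shSYK_1 gave the higher values, and in HL-60 shSYK_2 did. LY86 rose by 0.58 in MOLM-14 (SE 0.0551, adjusted p = 2.23e-06), by 1.17 in U937 (SE 0.0551, adjusted p = 1.09e-09) and by 1.36 in HL-60 (SE 0.0551, adjusted p = 4.92e-11). In MOLM-14 it rose with shSYK_1 (1.01, adjusted p = 1.50e-08), while shSYK_2 gave 0.15 (adjusted p = 0.135). In HL-60 without the array whose labels disagree, the rise with both hairpins was 1.33 and with shSYK_2 1.64.

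CD180 (206206_at), the TLR4 relative that LY86 accompanies, moved in opposite directions with the 2 hairpins in MOLM-14. It was 5.11 and 4.83 with shSYK_1, 3.56 and 3.95 with shSYK_2, and 4.39, 4.64 and 4.41 with shLuc. The shSYK_1 arrays lay above all controls and the shSYK_2 arrays below them. CD180 rose with shSYK_1 (0.49, SE 0.123, adjusted p = 0.00679) and fell with shSYK_2 (-0.73, SE 0.123, adjusted p = 5.55e-04). The rise rested on MOLM-14 shSYK_1 replicate 1, without which it was 0.35 (adjusted p = 0.128). U937 had 3.99 and 3.82 with shSYK_1, 3.12 and 2.92 with shSYK_2, and 3.15, 3.07 and 2.99 with shLuc, and CD180 rose there with shSYK_1 (0.83, SE 0.123, adjusted p = 1.51e-04). The pooled U937 rise of 0.39 (adjusted p = 0.0160) was not called without U937 shLuc replicate 2 (0.39, adjusted p = 0.0515), shLuc replicate 3 (0.35, adjusted p = 0.0762), shSYK_1 replicate 1 (0.35, adjusted p = 0.0598) or shSYK_2 replicate 1 (0.34, adjusted p = 0.0655). In HL-60 the values were low, 3.36 to 3.59 with the SYK hairpins and 3.04 to 3.22 with shLuc, and the change of 0.27 did not pass (adjusted p = 0.0699). It passed without HL-60 shSYK_2 replicate 1 (0.33, adjusted p = 0.0463), and without either MOLM-14 shSYK_2 array (0.27, adjusted p = 0.0458). The averaged rise of 0.18 (SE 0.0595, adjusted p = 0.0265) lost its call without any 1 of 8 arrays, with values of 0.15 to 0.17 and adjusted p of 0.0517 to 0.0604. Those arrays were MOLM-14 shLuc replicates 1 and 3, MOLM-14 shSYK_1 replicate 1, MOLM-14 shSYK_2 replicate 2, U937 shLuc replicate 3, U937 shSYK_1 replicate 1, U937 shSYK_2 replicate 1 and HL-60 shLuc replicate 1. It was also not called after quantile normalisation (0.16, adjusted p = 0.0625) or on log2 of the intensity plus 16 (0.08, adjusted p = 0.0588).

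TLR2 (204924_at), the lipopeptide receptor, did not pass when the hairpins were averaged, and the hairpins took opposite sides of the controls. MOLM-14 had 7.22 and 7.10 with shSYK_1, 5.73 and 5.46 with shSYK_2, and 6.22, 6.55 and 6.44 with shLuc. HL-60 had 7.94 and 7.90 with shSYK_1, 7.05 and 7.19 with shSYK_2, and 7.66, 7.49 and 7.50 with shLuc. As titled, all shSYK_1 arrays were above and all shSYK_2 arrays below the controls in both lines. U937 had 5.76 and 5.74 with shSYK_1, 5.20 and 5.27 with shSYK_2, and 5.41, 5.59 and 5.77 with shLuc, so that shSYK_1 overlapped its controls. TLR2 rose with shSYK_1 in MOLM-14 (0.75, SE 0.111, adjusted p = 8.38e-05) and HL-60 (0.37, SE 0.111, adjusted p = 0.0213), and was 0.16 in U937 (adjusted p = 0.397). It fell with shSYK_2 in MOLM-14 (-0.81, SE 0.111, adjusted p = 8.77e-05), U937 (-0.36, SE 0.111, adjusted p = 0.0382) and HL-60 (-0.43, SE 0.111, adjusted p = 0.0114). Only the MOLM-14 pair of calls was kept without any 1 array. The HL-60 rise was lost without HL-60 shLuc replicate 2 or 3 or either shSYK_1 array (0.34 to 0.39, adjusted p = 0.0613 to 0.121). The HL-60 fall was lost without shSYK_2 replicate 1, the array whose labels disagree (-0.36, adjusted p = 0.126). With that array placed in shSYK_1, as its source name says, the HL-60 changes were 0.08 with shSYK_1 (adjusted p = 0.809) and -0.36 with shSYK_2 (adjusted p = 0.525), so the opposite calls in HL-60 hold only for the placement by title. The HL-60 rise was also lost with arrays centred on their medians (0.29, adjusted p = 0.0726), and the HL-60 fall with array weights (-0.43, adjusted p = 0.137). The U937 fall was lost without U937 shLuc replicate 2 or 3 or either shSYK_2 array (-0.39 to -0.27, adjusted p = 0.0788 to 0.214).

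TLR1 (210176_at), the partner of TLR2, rose in HL-60, where it was 4.84 and 4.79 with shSYK_1, 4.05 and 4.47 with shSYK_2, and 3.75, 3.82 and 3.79 with shLuc. The rise was 0.75 (SE 0.144, adjusted p = 9.43e-04), and 0.86 without the array whose labels disagree. With shSYK_1 it was 1.03 (adjusted p = 2.50e-04), and with shSYK_2 0.47 (adjusted p = 0.0603), which passed at 0.68 (adjusted p = 0.0469) without that array. It also passed without MOLM-14 shLuc replicate 1 or 2 (0.47, adjusted p = 0.0251 and 0.0308). MOLM-14 had 4.19 and 4.11 with shSYK_1, 2.99 and 3.36 with shSYK_2, and 4.31, 3.58 and 3.91 with shLuc, the controls being spread widely. TLR1 fell with shSYK_2 in MOLM-14 (-0.76, SE 0.172, adjusted p = 0.00549), a call that rested on shSYK_2 replicate 1 (-0.57, adjusted p = 0.111 without it). The pooled MOLM-14 value of -0.27 did not pass (adjusted p = 0.222), but did without MOLM-14 shLuc replicate 2 (-0.45, adjusted p = 0.0383). U937 values were near the lower quartile, 2.85 to 3.07 with the SYK hairpins and 2.61 to 3.03 with shLuc. The averaged value of 0.21 passed without MOLM-14 shLuc replicate 1 (0.27, adjusted p = 0.00685), MOLM-14 shSYK_2 replicate 1 (0.24, adjusted p = 0.0372), U937 shLuc replicate 3 (0.25, adjusted p = 0.0333) or HL-60 shSYK_2 replicate 1 (0.25, adjusted p = 0.0280).

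TLR5 (210166_at), the flagellin receptor, was dim on all arrays and rose in U937. There it was 3.54 and 3.62 with shSYK_1, 3.59 and 3.58 with shSYK_2, and 3.06, 3.33 and 3.04 with shLuc. Knockdown and control arrays did not overlap, and the hairpins differed by 0.01 (95% interval -0.23 to 0.24). The U937 rise was 0.44 (SE 0.0860, adjusted p = 0.00218), and each hairpin passed by itself (0.43 with shSYK_1, adjusted p = 0.00700, and 0.44 with shSYK_2, adjusted p = 0.00672). The shSYK_1 call was lost without its replicate 2 (0.40, adjusted p = 0.0708), and the shSYK_2 call without either of its replicates (0.43 and 0.44, adjusted p = 0.0542 and 0.0520). In MOLM-14 the range was 2.85 to 3.10 with the SYK hairpins and 2.85 to 3.02 with shLuc, and in HL-60 2.75 to 2.97 with the SYK hairpins and 2.73 to 2.99 with shLuc. Both are below or at the lower quartile of the arrays. The averaged rise of 0.16 (SE 0.0497, adjusted p = 0.0218) was lost without U937 shLuc replicate 1 (0.14, adjusted p = 0.0501), U937 shLuc replicate 3 (0.14, adjusted p = 0.0529) or HL-60 shLuc replicate 3 (0.13, adjusted p = 0.0529), and after quantile normalisation (0.13, adjusted p = 0.0662).

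TLR8 (220832_at), the endosomal receptor for single-stranded RNA, rose in HL-60. HL-60 had 5.27 and 5.39 with shSYK_1, 5.12 and 5.23 with shSYK_2, and 4.05, 4.25 and 3.99 with shLuc. All SYK hairpin arrays exceeded all controls, and the shSYK_2 arrays lay just below the shSYK_1 arrays. The rise was 1.15, 2.23-fold (SE 0.109, adjusted p = 8.26e-07), and 1.18 without the array whose labels disagree. By hairpin it was 1.23 with shSYK_1 (adjusted p = 2.44e-06) and 1.08 with shSYK_2 (adjusted p = 2.17e-05), or 1.14 with shSYK_2 without that array. In MOLM-14 the values were 3.29 to 3.50 with the SYK hairpins and 3.07 to 3.30 with shLuc, a change of 0.24 (adjusted p = 0.153). In U937 they were 3.06 to 3.44 with the SYK hairpins and 3.14 to 3.50 with shLuc, a change of -0.07 (adjusted p = 0.787). The averaged rise was 0.44 (SE 0.0628, adjusted p = 3.43e-05), and as for CD14 the test was passed in HL-60 and in no other line.

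MYD88 (209124_at), the shared adaptor, was well above the median of every array and rose in U937 and HL-60. HL-60 had 9.36 and 9.46 with shSYK_1, 9.03 and 8.95 with shSYK_2, and 8.51, 8.49 and 8.58 with shLuc. U937 had 9.22 and 9.31 with shSYK_1, 8.93 and 8.98 with shSYK_2, and 8.91, 8.87 and 8.81 with shLuc. Groups did not overlap in either line, although shSYK_2 in U937 stood only just above its controls. By hairpin MYD88 passed in U937 with shSYK_1 (0.40) but not with shSYK_2 (0.10). The rise was 0.67 in HL-60 (SE 0.0552, adjusted p = 1.76e-07; 0.65 without the array whose labels disagree) and 0.25 in U937 (SE 0.0552, adjusted p = 0.00520). With that array placed in shSYK_1 the U937 call was lost (0.25, adjusted p = 0.0743). MOLM-14 had 8.73 and 8.60 with shSYK_1, 8.22 and 8.21 with shSYK_2, and 8.33, 8.23 and 8.29 with shLuc. MYD88 rose there with shSYK_1 (0.38, SE 0.0660, adjusted p = 3.47e-04) and was -0.07 with shSYK_2 (adjusted p = 0.571). The pooled MOLM-14 change of 0.16 missed the threshold (adjusted p = 0.0568), and passed without MOLM-14 shSYK_1 replicate 2 (0.19, adjusted p = 0.0369) or either HL-60 shSYK_2 array (0.16, adjusted p = 0.0482). The averaged rise was 0.36, 1.28-fold (SE 0.0319, adjusted p = 1.99e-07).

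The counts were also taken for each hairpin against shLuc. With shSYK_1, 6 of 10 rose and 0 fell in MOLM-14, where 13.0% of all genes rose and 12.5% fell. In U937 6 rose and 0 fell with shSYK_1 (8.53% and 8.37% of all genes), and in HL-60 8 rose and 0 fell (12.5% and 11.8%). With shSYK_2, 1 rose and 3 fell in MOLM-14 (8.47% and 8.12%), 3 rose and 1 fell in U937 (8.32% and 7.92%), and 6 rose and 1 fell in HL-60 (10.0% and 11.4%). The U937 shSYK_2 count was 2 of 10 called in all without either of its arrays. The hairpins share the shLuc arrays, so their effects are set side by side and not correlated.

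**Figure D2:**
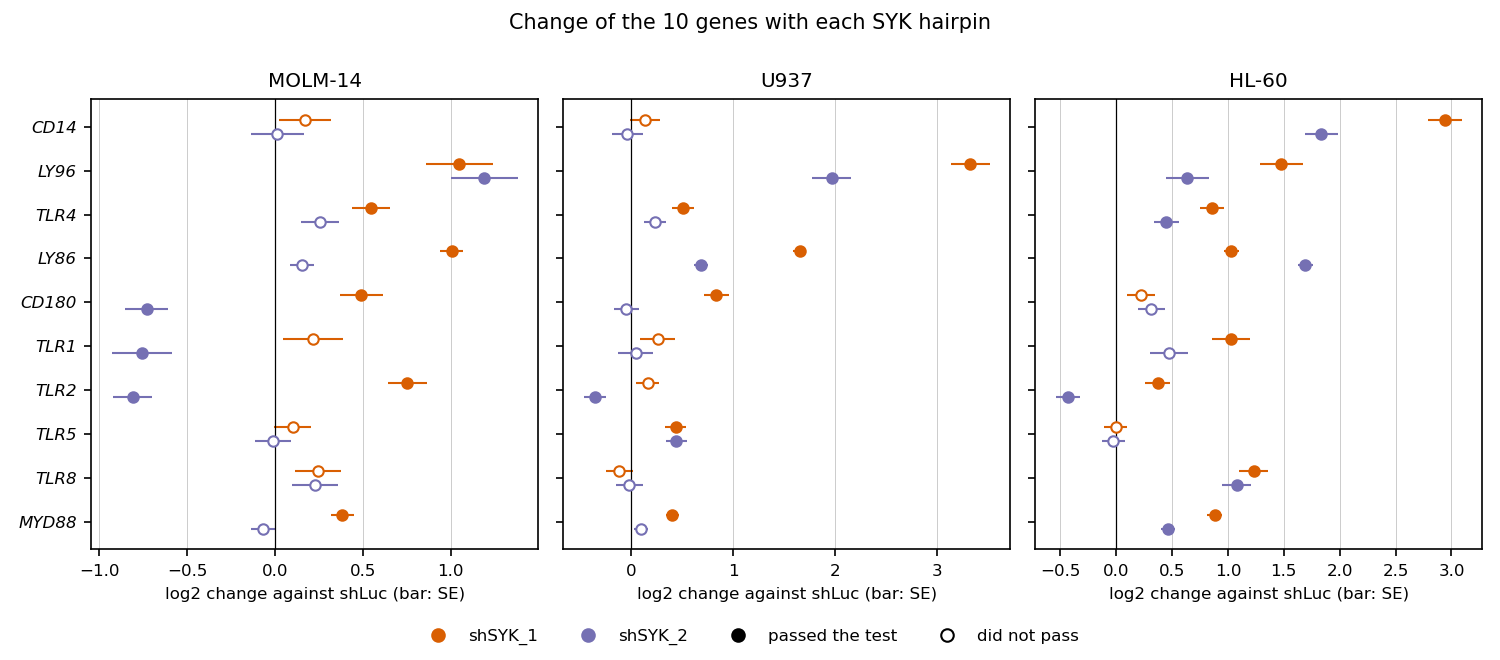
Log2 change of each gene against shLuc (x axis, with standard error bars from the limma fit) for shSYK_1 and shSYK_2 in each line; filled points passed the test at an adjusted p under 0.05. LY96 is to the right of 0 for both hairpins in all lines, and TLR2 is to the right with shSYK_1 (0.75 in MOLM-14) and to the left with shSYK_2 (-0.81 in MOLM-14).

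The direct comparison of shSYK_2 with shSYK_1 was lower for 8 of 10 genes and higher for 0 on average over the lines, where 35.7% of all genes differed in either direction. TLR2 differed by -0.96 (SE 0.0704, adjusted p = 1.92e-08), LY96 by -0.69, CD180 by -0.67, TLR1 by -0.58, CD14 by -0.48, LY86 by -0.39, MYD88 by -0.39 and TLR4 by -0.32. TLR5 (-0.04, 95% interval -0.18 to 0.10) and TLR8 (-0.02, 95% interval -0.20 to 0.15) did not pass. SYK itself differed by -0.45 on this scale, so on average over the lines the hairpin that left less SYK gave the lower values of these 8 genes. What part SYK level or other targets of each hairpin had in this was not tested. The lines were not uniform. SYK differed between the hairpins by -0.67 in MOLM-14 and -0.44 in U937, while in HL-60 the difference of -0.24 did not pass. That HL-60 value was -0.11 without the array whose labels disagree and 0.004 with that array placed in shSYK_1. CD14 passed in HL-60 alone, and LY86 was higher with shSYK_2 there (0.66). LY96 in MOLM-14 (0.14) and CD180 in HL-60 (0.09) did not pass. With the array whose labels disagree placed in shSYK_1, the averaged differences of CD14 (-0.30), LY96 (-0.47) and TLR4 (-0.23) were no longer called. In MOLM-14, 5 of 10 differed (25.9% of all genes), all lower with shSYK_2: TLR2 by -1.56, CD180 by -1.22, TLR1 by -0.97, LY86 by -0.85 and MYD88 by -0.45. In U937, 5 differed (23.0% of all genes), again all lower, namely LY96 by -1.36, LY86 by -0.96, CD180 by -0.88, TLR2 by -0.52 and MYD88 by -0.31. The MYD88 difference in U937 was lost without U937 shSYK_1 replicate 2 (-0.26, adjusted p = 0.0533).

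In HL-60, 7 differed (22.2% of all genes): CD14 by -1.11, LY96 by -0.84, TLR2 by -0.80, TLR1 by -0.55, MYD88 by -0.42 and TLR4 by -0.41 were lower with shSYK_2, and LY86 was higher by 0.66 (SE 0.0722, adjusted p = 7.58e-06). These values include the array whose labels disagree. Without it 4 of 10 differed, CD14 by -0.99, TLR2 by -0.73, MYD88 by -0.46 and LY86 by 0.61. LY96 was then -0.58 (adjusted p = 0.129), TLR4 -0.30 (adjusted p = 0.193) and TLR1 -0.34 (adjusted p = 0.369). Placed in shSYK_1, as its source name says, that array left 0 of 10 differing in HL-60 by limma (1 at an unadjusted p under 0.05), where only 32 of all genes passed. Without HL-60 shSYK_1 replicate 1 the count was also 4, with LY96 at -0.64 (adjusted p = 0.107), TLR4 at -0.23 (adjusted p = 0.277) and TLR1 at -0.53 (adjusted p = 0.174). The TLR1 difference (adjusted p = 0.0446) lost its call without any 1 of 14 arrays, with values of -0.58 to -0.34 and adjusted p of 0.0536 to 0.369. These were every HL-60 array except shSYK_2 replicate 2, MOLM-14 shLuc replicate 3 and both MOLM-14 shSYK_1 arrays, U937 shLuc replicate 2 and all U937 arrays with a SYK hairpin.

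The lines were compared in their response, the mean of both hairpins minus shLuc, by the interaction terms of the same fit. Of the 10 genes, 2 responded differently in MOLM-14 and U937 (3.70% of all genes did), 5 in MOLM-14 and HL-60 (8.48%) and 5 in U937 and HL-60 (6.88%). CD14 responded less in MOLM-14 than in HL-60, by -2.30 (SE 0.176, adjusted p = 5.60e-07), and less in U937 than in HL-60, by -2.34 (SE 0.176, adjusted p = 5.75e-07). LY96 responded less in MOLM-14 than in U937, by -1.52 (SE 0.224, adjusted p = 6.74e-04), and more in U937 than in HL-60, by 1.59 (SE 0.224, adjusted p = 3.60e-04). Between MOLM-14 and HL-60 its responses differed by 0.06 (95% interval -0.41 to 0.54). The LY96 differences carry the dim U937 controls described above, and that between U937 and HL-60 carries the dim HL-60 controls too. LY86 responded less in MOLM-14 than in U937, by -0.59, or HL-60, by -0.78. The call against U937 was lost with the array whose labels disagree placed in shSYK_1. The difference from HL-60 lay with shSYK_2 (0.15 in MOLM-14 and 1.69 in HL-60, or 1.64 without that array), while shSYK_1 gave 1.01 and 1.03. TLR8 and MYD88 responded less in MOLM-14 than in HL-60 (-0.92 and -0.52) and less in U937 than in HL-60 (-1.22 and -0.42). With the array whose labels disagree placed in shSYK_1, both MYD88 calls were lost (-0.43, adjusted p = 0.0596, and -0.34, adjusted p = 0.176). TLR1 responded less in MOLM-14 than in HL-60, by -1.02. The MOLM-14 response averages 0.22 with shSYK_1, which did not pass, and -0.76 with shSYK_2. In HL-60 TLR1 gave 1.03 with shSYK_1 and 0.47 with shSYK_2, or 0.68 with shSYK_2 without the array whose labels disagree. TLR5 responded more in U937 than in HL-60, by 0.45 (adjusted p = 0.0339), a call lost without any 1 of 9 arrays (0.40 to 0.45, adjusted p = 0.0617 to 0.0969), among them the array whose labels disagree (0.40, adjusted p = 0.0668). It was lost too after quantile normalisation (0.43, adjusted p = 0.0525), with a trended prior (0.45, adjusted p = 0.0506) and with that array placed in shSYK_1 (0.42, adjusted p = 0.0963). The other 8 arrays were U937 shLuc replicates 1 and 3, U937 shSYK_1 replicate 2, U937 shSYK_2 replicates 1 and 2, HL-60 shLuc replicates 1 and 2 and HL-60 shSYK_1 replicate 2. TLR4 did not pass in any pair of lines, with intervals of -0.53 to 0.02 for MOLM-14 minus HL-60, -0.56 to -0.01 for U937 minus HL-60 and -0.24 to 0.31 for MOLM-14 minus U937. Without the array whose labels disagree, 5 genes still differed between U937 and HL-60, with TLR1 (-0.70, adjusted p = 0.0483) called and TLR5 not. Without it the MOLM-14 minus HL-60 values were -2.36 for CD14, -0.75 for LY86, -0.95 for TLR8, -0.50 for MYD88 and -1.13 for TLR1. The U937 minus HL-60 values were then -2.40 for CD14, 1.45 for LY96, -1.25 for TLR8 and -0.41 for MYD88.

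The shLuc arrays give the levels of these genes without knockdown, and the 3 lines differed in them. Between MOLM-14 and U937 controls, 8 of 10 genes differed (52.1% of all genes), 6 higher and 2 lower in MOLM-14. Between MOLM-14 and HL-60 controls 8 differed (49.4% of all genes), 3 higher and 5 lower in MOLM-14, and between U937 and HL-60 controls 8 differed (52.8%), 4 higher and 4 lower in U937. CD14 averaged 6.55 ± 0.0617 in HL-60, 3.08 ± 0.213 in MOLM-14 and 2.75 ± 0.177 in U937 (log2 intensity, SD, n = 3 each). The MOLM-14 and U937 values lie near or below the lower quartile of the arrays, so no order is read between them, although CD14 is among the 8 genes called for that pair (adjusted p = 0.0430, a call lost without any 1 of 9 arrays). LY96 averaged 4.28 ± 0.263 in MOLM-14, 3.58 ± 0.236 in HL-60 and 3.31 ± 0.268 in U937 (n = 3 each), and the last 2 did not differ beyond their spread (adjusted p = 0.199). TLR4 averaged 4.94 ± 0.0447 in U937, 4.22 ± 0.128 in HL-60 and 3.001 ± 0.155 in MOLM-14 (n = 3 each), and all neighbours differed. The order for LY86 was MOLM-14 at 8.41 ± 0.0148, U937 at 6.37 ± 0.0418 and HL-60 at 5.71 ± 0.0324 (n = 3 each), also with all neighbours apart. With the hairpins averaged, the line with the highest control level of LY86 had the smallest rise and the line with the lowest had the largest. This describes 3 lines, and U937 was not called different from HL-60 in its averaged response (-0.19). The order held with shSYK_2 (MOLM-14 0.15, U937 0.68, HL-60 1.69, or 1.64 without the array whose labels disagree). It did not hold with shSYK_1, where U937 rose most (1.65) and HL-60 (1.03) was close to MOLM-14 (1.01).

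CD180 was highest in MOLM-14 controls (4.48 ± 0.138), above HL-60 (3.16 ± 0.105) and U937 (3.07 ± 0.0820), which did not differ from each other (adjusted p = 0.539; n = 3 each). TLR2 averaged 7.55 ± 0.0914 in HL-60, 6.40 ± 0.166 in MOLM-14 and 5.59 ± 0.179 in U937 (n = 3 each), with all neighbours apart. TLR1 averaged 3.93 ± 0.369 in MOLM-14 and 3.79 ± 0.0387 in HL-60, which did not differ (adjusted p = 0.465), and 2.81 ± 0.211 in U937 (n = 3 each). TLR5 averaged 3.14 ± 0.163 in U937, 2.92 ± 0.0875 in MOLM-14 and 2.89 ± 0.139 in HL-60 (n = 3 each). All 3 lie near or below the lower quartile, and no order is read between them. The fit called U937 and HL-60 (0.26, adjusted p = 0.0255), but not without U937 shLuc replicate 2 (0.16, adjusted p = 0.158), without HL-60 shLuc replicate 3 (0.18, adjusted p = 0.141) with each array centred on its median (0.01, adjusted p = 0.959), on log2 of the intensity plus 16 (0.09, adjusted p = 0.0553) or with a trended prior (0.26, adjusted p = 0.0537). MOLM-14 minus U937 (-0.22, adjusted p = 0.0512) became called without any 1 of 6 arrays (adjusted p = 0.0328 to 0.0463). TLR8 averaged 4.10 ± 0.137 in HL-60, above U937 (3.27 ± 0.204) and MOLM-14 (3.17 ± 0.120), which did not differ (adjusted p = 0.517; n = 3 each). MYD88 averaged 8.86 ± 0.0524 in U937, 8.53 ± 0.0479 in HL-60 and 8.28 ± 0.0482 in MOLM-14 (n = 3 each), with all neighbours apart. With each array centred on its median, the median change of all genes between U937 and HL-60 controls was -0.30, against -0.05 without. MYD88 was then not called between those lines (0.08, adjusted p = 0.270), and LY96 (-0.53) and CD180 (-0.34) were called lower in U937.

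The 10 genes did not all move as a block from array to array. Pearson correlations were taken over the 21 arrays after subtracting the shLuc mean of each line. They are descriptions, because the arrays share lines, hairpins and controls. CD14 followed TLR8 most closely (0.93), then MYD88 (0.85). TLR4 followed MYD88 (0.87) and LY86 (0.75). LY96 followed TLR5 (0.76) and LY86 (0.69), but not CD14 (0.14) or TLR8 (0.04). TLR2 followed CD180 (0.63) and its partner TLR1 (0.51), and had 0.03 with TLR8 and 0.04 with LY96. TLR5 and TLR8 gave -0.26, the lowest of the 45 pairs. Spearman values were 0.58 for CD14 with TLR8 and 0.56 for CD14 with MYD88, against 0.82 for TLR4 with LY86 and 0.73 for LY96 with LY86.

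On the same measure, 6082 genes brighter than the median gene were searched for patterns most like each of the 8 genes that rose on average. For CD14 they were LPAR6 (0.94), FCN1 (0.94) and CD58 (0.93), and for TLR8 LPAR6 again (0.93), HS1BP3 (0.91) and PAN2 (0.91). FCN1 encodes ficolin-1, a lectin secreted by monocytes. LY96 was matched by ATP6V0E1 (0.95), FTH1P5 (0.93) and GPNMB (0.92), and TLR4 by DUSP6 (0.94), NQO1 (0.92) and LGALS3 (0.92). FTH1P5 is a ferritin heavy-chain pseudogene, so its probe set may bind transcripts of the parent gene. LY86 was matched by LGALS1 (0.94), EIF4EBP2 (0.93) and WAS (0.92), and CD180 by TACC1 (0.93), S100A8 (0.92) and IL17RA (0.91). MYD88 was matched by CSTB (0.96), SASH3 (0.95) and CFP (0.95), the last of which encodes the complement protein properdin. TLR5 had weaker matches in KRT10 (0.86), MOB4 (0.86) and GPR65 (0.84). By Spearman the matches of CD14 reached only 0.39 to 0.48, those of TLR5 0.66 to 0.74 and those of TLR8 0.71 to 0.84, against 0.78 to 0.91 for the matches of the other 5 genes.

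The rest of the pathway was followed through 9 lists of 72 genes, of which 64 were measured. On average over the lines 25 of these 64 rose, 8 fell and 31 did not pass, with a median change of 0.09 against 0.01 over all genes. Over all genes 17.1% rose and 17.0% fell, the background for each list that follows, and lists this short are described by their counts alone. The lists were drawn up with earlier results of these data known. Genes for handling lipopolysaccharide outside the TLR4 complex rose in 4 of 6 cases with none lower, a median of 0.43. CD36, a scavenger receptor that works with TLR2, rose by 1.63 (SE 0.0813, adjusted p = 2.60e-10), and ITGAM and ITGB2, which together form complement receptor 3, rose by 0.97 and 0.43. In MOLM-14, CD36 rose with shSYK_1 (2.23) and fell with shSYK_2 (-1.27), as TLR2 did. Of 3 other Toll-like receptors measured, 1 rose, namely TLR7, the receptor closest to TLR8 in sequence, by 0.21 (SE 0.0510, adjusted p = 0.00337). Its mean log2 intensity of 2.60 lies below the lower quartile of every array, and of the single lines HL-60 alone passed (0.36, adjusted p = 0.00591; 0.28 without the array whose labels disagree). Of 4 chaperones and trafficking factors, UNC93B1, which carries endosomal Toll-like receptors out of the endoplasmic reticulum, fell by 0.31. HSP90B1, the folding chaperone of Toll-like receptors, fell by 0.17, and CD74 rose by 0.18. Among single lines HSP90B1 and CD74 passed in HL-60 alone (-0.31 and 0.63, or -0.30 and 0.55 without the array whose labels disagree).

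Adaptors other than MYD88 were measured for 2 of 4, and SARM1 rose by 0.26. By line SARM1 passed in HL-60 alone (0.42). Without the array whose labels disagree it was 0.31 there and was no longer called. The kinase module that MYD88 engages had members on both sides: 3 of 11 rose, 4 fell and 4 did not pass. TRAF3 fell by 0.25 (SE 0.0413, adjusted p = 1.74e-04), while TBK1, a kinase that activates IRF3, rose by 0.20 and TAB2 by 0.17. TBK1 passed in U937 (0.38) and in no other line. In the NF-kB module 2 of 8 rose and none fell (1 at an unadjusted p under 0.05), with RELA and IKBKB each at 0.12. Neither RELA nor IKBKB passed in a single line. Among 5 interferon regulatory factors, IRF8, a factor needed for monocyte development, fell by 0.51 (SE 0.0309, adjusted p = 2.69e-09) and IRF5 rose by 0.43 (SE 0.0663, adjusted p = 7.63e-05). IRF8 fell in all 3 lines, by 0.29 in HL-60 (0.25 without the array whose labels disagree), 0.70 in MOLM-14 and 0.53 in U937. IRF5 rose in HL-60 (1.19, or 1.10 without the array whose labels disagree) and was 0.06 in MOLM-14 and 0.05 in U937. Inhibitors of the pathway rose in 5 of 10 cases and none fell, with TOLLIP at 0.42, CYLD at 0.31 and SIGIRR at 0.22. TOLLIP passed in every line, whereas CYLD and SIGIRR passed in HL-60 alone (0.61 and 0.56, or 0.65 and 0.49 without the array whose labels disagree).

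Genes that lipopolysaccharide is known to induce rose in 7 of 15 cases and fell in 1. Of those that rose, CXCL10, CCL4, CXCL2, PTGS2 and IL10 had mean log2 intensities of 3.29, 3.17, 3.07, 2.93 and 2.46. These lie near or below the lower quartile of the arrays, where a value cannot be told from background. CCL2, a monocyte chemokine, rose by 1.19 (SE 0.0749, adjusted p = 3.98e-09), by 1.75 in U937 and 1.53 in HL-60 (also 1.53 without that array), and was 0.30 in MOLM-14 (adjusted p = 0.128). IL1B rose by 0.40 (SE 0.0649, adjusted p = 1.25e-04), and in MOLM-14 it rose with shSYK_1 (0.76) and fell with shSYK_2 (-1.10). With the hairpins averaged IL1B passed in HL-60 alone (1.16, or 1.27 without that array). TNF fell by 0.30 on average (SE 0.0510, adjusted p = 1.89e-04), by 0.61 in MOLM-14 and 0.46 in HL-60 (0.43 without that array), and was 0.16 in U937 (adjusted p = 0.269).

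**Figure D3:**
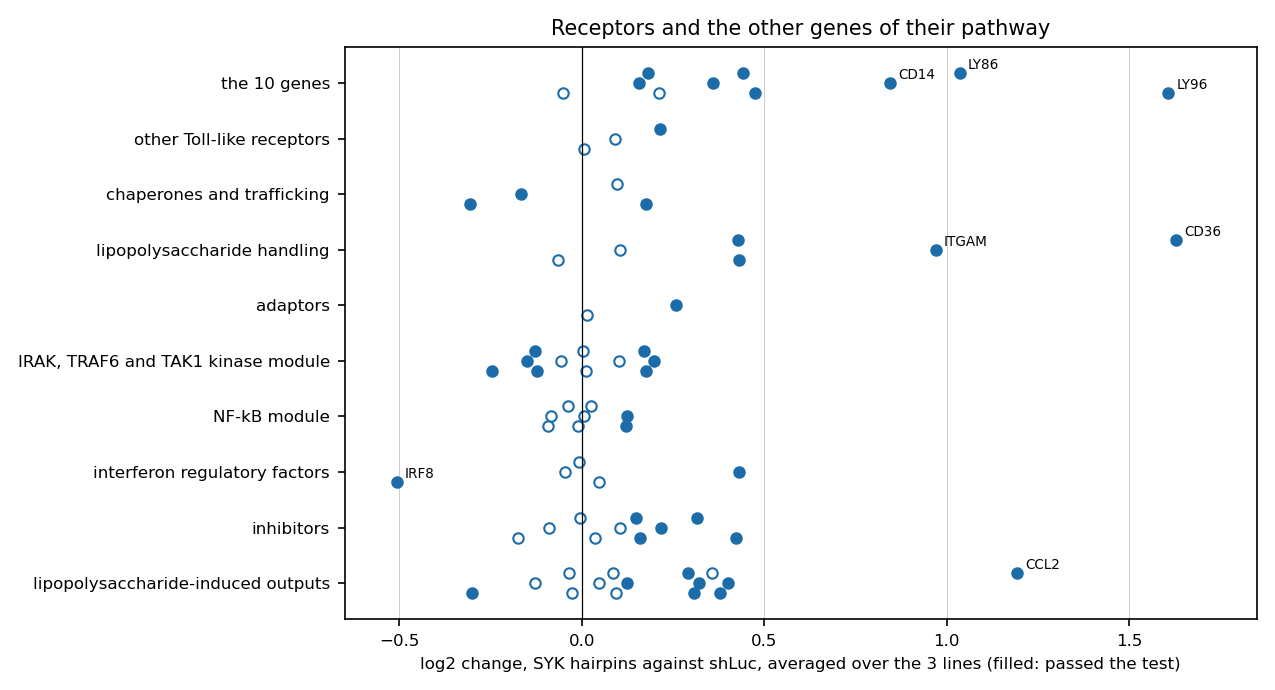
Log2 change with the SYK hairpins against shLuc, averaged over the 3 lines (x axis), for the 10 genes in the top row and for 9 lists of other pathway genes below; each point is a gene, filled where it passed the test. Of the points in the lists, CD36 (1.63), CCL2 (1.19) and ITGAM (0.97) lie to the right of CD14 (0.84), and IRF8 (-0.51) is the lowest point drawn.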

How the data were processed

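RNA of 21 cultures was measured on 1 array each. The intensity values deposited by the authors are RMA values, according to the submitters' processing notes, which give no version. RMA is meant to bring the arrays processed together to one distribution, but the deposited arrays differed in their quartiles. The array whose labels disagree had the lowest upper quartile of intensity (122.3) and the highest lower quartile (8.23). Upper quartiles elsewhere were 134.5 to 139.8. Whether that array was processed together with the rest was not tested. The image analysis is not given in the sources used here. RMA compresses changes at low intensity. The tests were planned for log2 values, but the deposited intensity values are linear (3.23 to 13025), so log2 was taken here, with no pseudocount or further scaling. The table held 22277 probe sets, of which 62 controls, 568 with several symbols and 1923 with none in the annotation were left out. The gene IDs of 19707 probe sets gave a current symbol in RefSeq (GRCh38.p14), and 17 kept their old one. The probe set with the highest mean stood for each of 12165 genes.

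limma 3.58.1 in R 4.3.3 fitted a mean for each of the 9 groups (12 residual and 4.09 prior degrees of freedom). Tests were two-sided with Benjamini-Hochberg adjustment over all 12165 genes within each comparison, and a gene rose or fell where the adjusted p was under 0.05. Log2 changes are differences between group means. The same steps were tested on simulated data. Every member was named, with the genes of smallest p in each list and the 3 genes most correlated with each member. No deposited arrays were identical. The members and lists were chosen with earlier results of these data known. The number of arrays limits the precision.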

Additional observations from a re-analysis of the deposited data

Results flagged for a closer look

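The genes below responded differently in 2 lines by an interaction term of the limma fit, with adjustment over all genes. Each value is the response of the first line minus that of the second, a response being the mean of both SYK hairpins minus shLuc on the log2 scale. CD14 gave -2.30 for MOLM-14 minus HL-60 (adjusted p = 5.60e-07) and -2.34 for U937 minus HL-60 (adjusted p = 5.75e-07). In HL-60 all 4 knockdown arrays exceeded the controls, and in MOLM-14 and U937 they overlapped them. LY96 gave -1.52 for MOLM-14 minus U937 (adjusted p = 6.74e-04) and 1.59 for U937 minus HL-60 (adjusted p = 3.60e-04), with all 4 knockdown arrays above the controls in all 3 lines. LY86 gave -0.59 for MOLM-14 minus U937 (adjusted p = 2.79e-04) and -0.78 for MOLM-14 minus HL-60 (adjusted p = 1.19e-05), also with all 4 knockdown arrays above the controls in each line. TLR8 gave -0.92 for MOLM-14 minus HL-60 (adjusted p = 0.00121) and -1.22 for U937 minus HL-60 (adjusted p = 1.19e-04). MYD88 gave -0.52 for MOLM-14 minus HL-60 (adjusted p = 5.04e-04) and -0.42 for U937 minus HL-60 (adjusted p = 0.00337), and neither was called with HL-60 shSYK_2 replicate 1, the array whose labels disagree, placed in shSYK_1 (-0.43, adjusted p = 0.0596, and -0.34, adjusted p = 0.176). TLR1 gave -1.02 for MOLM-14 minus HL-60 (adjusted p = 0.00457). TLR5 gave 0.45 for U937 minus HL-60 (adjusted p = 0.0339), the call that any 1 of 9 arrays could end (0.40 to 0.45 without them, adjusted p = 0.0617 to 0.0969).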

How the results depend on the processing

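The 120 calls made for the 10 genes over all comparisons were recomputed under 32 other settings. Of 3714 such values 3573 kept call and direction, 141 lost the call and 0 reversed. Many of these values could not reverse, so the counts are no measure of robustness. In 21 settings 1 array was left out, which moves the log2 value only in comparisons that use its group. Of 2466 recomputed values that had not been called, 46 became called and 97 changed sign without being called. The counts of the 10 genes called moved as follows. With the dimmest 40% of genes left out, which drops 4 of the 10 from the test, the count was 5 against 8 averaged over lines, 2 against 4 for MOLM-14 shSYK_2, 3 against 5 for the hairpin difference in MOLM-14, 3 against 5 for MOLM-14 minus HL-60 and for U937 minus HL-60 responses, and 5 against 8 for U937 minus HL-60 controls. With array weights it was 4 against 7 for HL-60 shSYK_2 and for the hairpin difference in HL-60, and 4 against 2 for MOLM-14 minus U937 responses. With the disputed array, HL-60 shSYK_2 replicate 1, counted as shSYK_1 it was 3 against 7 for HL-60 shSYK_2, 5 against 8 for the averaged hairpin difference, 3 against 5 for that in U937, 0 against 7 for that in HL-60 (all uncalled by limma, 32 of all genes being called against 2704), 1 against 2 for MOLM-14 minus U937 and 3 against 5 for U937 minus HL-60 responses. Leaving out 1 array at a time gave 2 to 4 for U937 shSYK_2 and 4 to 7 for the hairpin difference in HL-60. The 33 calls among the pathway genes ranged from 29 to 33 without 1 array and from 26 to 34 under the other settings.

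The replicate numbers of different groups showed no sign of pairing the arrays: 18 correlations of same-numbered deviations lay between -0.21 and 0.09. These are not all separate values. Deviations in a group of 2 arrays mirror each other, so the correlations between the SYK hairpins are equal for both replicate numbers. With the replicate number as a block, the count was 3 against 6 in U937, 2 against 4 for U937 shSYK_2 and 4 against 7 for HL-60 shSYK_2. Over all genes the block gave 1385 against 2361 calls in MOLM-14, 865 against 1793 in U937, 1917 against 2970 in HL-60, and 148 against 450, 365 against 1032 and 244 against 837 in the response differences MOLM-14 minus U937, MOLM-14 minus HL-60 and U937 minus HL-60. For single hairpins it gave 1224 against 2018 (MOLM-14 shSYK_2), 1205 against 2056 (U937 shSYK_1), 1131 against 1976 (U937 shSYK_2) and 1441 against 2611 (HL-60 shSYK_2). HL-60 shSYK_2 also fell to 1055 with array weights, 1116 with only HL-60 arrays and 516 with the disputed array moved, against 2611. HL-60 gave 1811 with only its own arrays and 1696 with that array moved, and U937 1121 with it moved. The HL-60 hairpin difference gave 1274 with array weights. MOLM-14 minus U937 responses gave 825 with 16 added, 711 with a trended prior and 231 with that array moved. U937 minus HL-60 responses gave 1294 with 16 added and 343 with it moved, and MOLM-14 minus HL-60 gave 445. Without 1 array, all-gene counts left the range of 1.5 times for MOLM-14 shSYK_2 (1079 and 1130), U937 shSYK_1 (1289), U937 shSYK_2 (1091 and 1225), HL-60 shSYK_2 (1248), the HL-60 hairpin difference (1529 and 1604), MOLM-14 minus HL-60 (1607) and U937 minus HL-60 responses (1538).

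Centring each array on its median changed the share of calls that were higher to 35.3% against 46.5% in HL-60, 34.7% against 51.5% for HL-60 shSYK_1, 61.3% against 43.2% for the HL-60 hairpin difference, 62.2% against 45.7% for MOLM-14 minus HL-60 and 60.6% against 41.0% for U937 minus HL-60 responses. In the controls it was 23.6% against 46.5% for MOLM-14 minus HL-60 and 24.0% against 48.8% for U937 minus HL-60. The cause of these shifts was not tested.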
